A study of Mus musculus with 22 samples.

Results

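Immediate-early genes are described here in mouse liver RNA: 10 genes chosen by symbol (Fos, Fosb, Jun, Junb, Egr1, Klf6, Myc, Ier2, Dusp1 and Zfp36) out of 45777 in the deposited count tables. All 10 were found in both tables, and all 10 passed the filter on low counts in every comparison. The choice was by symbol, and it was made with earlier results of these data known. The libraries came from livers of male C57BL/6J mice of wild-type genotype, with no age or time on diet in the labels, in a high-fat diet (HFD) cohort and a methionine- and choline-deficient diet (MCD) cohort of 11 libraries each. The HFD cohort, whose HFD livers are labelled MASLD (a fatty liver disease), held 4 livers given DTMB on HFD, 4 given vehicle on HFD and 3 given vehicle on normal diet. The MCD cohort, whose MCD livers are labelled MASH (fatty liver with inflammation), held 3 livers given DTMB on MCD, 4 given vehicle on MCD and 4 given vehicle on normal diet. DTMB is a compound known here only by that code name, given by mouth at 10 mg/kg/day. Every mouse on normal diet received vehicle, so no liver shows the compound without a disease diet.

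Immediate-early genes are transcribed within minutes of a stimulus, from factors already present in the cell, so no new protein is needed first. Growth factors, cytokines and stress reach them through MAP kinases and through the factors SRF, CREB and NF-kB. Their mRNAs are short lived. Fos, Fosb, Jun and Junb encode subunits of the dimeric factor AP-1, Egr1 and Klf6 encode zinc-finger factors, and Myc encodes a bHLH factor of growth and ribosome production. Ier2 encodes a small nuclear protein. Dusp1 and Zfp36 act as brakes: the first encodes a phosphatase that inactivates MAP kinases, and the second encodes tristetraprolin, which binds AU-rich mRNAs of cytokines and speeds their decay. In liver these genes rise after partial hepatectomy and in injury, and also with handling of tissue.

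The bases before the start sites of 4 of these genes are shown, and the 4 were chosen by the results below. Fos was higher on HFD and lower with DTMB. Jun and Klf6 were higher on MCD, and Klf6 was higher on HFD as well. Zfp36 differed between the diets in the opposite direction. Myc, also higher on MCD, is not among the promoters searched. A role of these bases in the results was not tested. RefSeq promoters (GRCm38.p6) matched 7 of the 10 genes, namely Fos, Fosb, Jun, Junb, Klf6, Dusp1 and Zfp36. Each line holds the 150 bases up to the start site, 5′ to 3′ on the strand of the gene, at chr12:85473740-85473889 (plus strand), chr4:95052223-95052372 (minus strand), chr13:5861339-5861488 (plus strand) and chr7:28379229-28379378 (minus strand). Capitals mark matches to TGACG (the shorter form of the CREB site), to TGACATCA (the AP-1 variant described in the Jun promoter), to TATAAA, and to the CArG box that SRF binds.
Fos: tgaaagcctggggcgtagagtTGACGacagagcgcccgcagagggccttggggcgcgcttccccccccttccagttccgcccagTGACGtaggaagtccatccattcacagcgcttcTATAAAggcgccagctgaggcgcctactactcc
Jun: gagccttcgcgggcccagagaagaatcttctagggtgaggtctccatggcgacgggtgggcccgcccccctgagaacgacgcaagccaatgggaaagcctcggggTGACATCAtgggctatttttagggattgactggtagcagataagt
Klf6: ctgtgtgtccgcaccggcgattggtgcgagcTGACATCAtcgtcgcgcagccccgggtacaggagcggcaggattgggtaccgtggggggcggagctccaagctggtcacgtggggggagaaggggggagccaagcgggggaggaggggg
Zfp36: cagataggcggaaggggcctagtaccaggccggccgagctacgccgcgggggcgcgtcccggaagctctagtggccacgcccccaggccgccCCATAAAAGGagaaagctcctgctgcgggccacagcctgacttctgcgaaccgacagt
The Fos stretch holds TGACG at -129 to -125 and at -66 to -62, counted back from the start site, and TATAAA at -33 to -28. Jun and Klf6 both hold TGACATCA, in Jun at -45 to -38 and in Klf6 at -119 to -112. Zfp36 holds the CArG box at -58 to -49. All 7 promoters were searched on both strands over 250 bases before the start for 7 motifs. These were the full CREB site TGACGTCA and its shorter form TGACG, and the canonical AP-1 site TGACTCA with its variant TGACATCA. The others were the TATAAA box, the CArG box and the E-box that Myc binds, CACGTG. The full CREB site always holds the shorter form. TGACG was in Fosb, Junb and Dusp1 as well, and Dusp1 held the full TGACGTCA at -143 to -136. CACGTG was in Klf6 and Dusp1, and TGACTCA in none of the 7. Over the same 250 bases of all 32851 RefSeq promoters, 17.8% hold TGACG, 1.55% TGACGTCA, 4.46% TGACTCA, 2.93% TGACATCA, 12.4% TATAAA, 6.02% CACGTG and 1.47% the CArG box. A match is a description of these letters and not a measured binding site. Bases farther upstream were not searched, so a motif missing here may lie beyond the 250 bases.

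Library totals ran from 50078966 to 66727450 counts. Hepatocyte markers were present throughout, with summed levels of 66700 to 111370 CPM (counts scaled to a common library size). Pancreatic acinar markers exceeded 100 CPM in 5 libraries of the HFD cohort (DTMB replicate 3, vehicle replicates 1 and 4, and normal-diet replicates 1 and 3) and, in the MCD cohort, in replicate 4 on normal diet. Normal-diet replicate 1 of the HFD cohort also held 178.9 CPM of skeletal muscle markers. Results that those libraries decide are given with and without them. Leaving them out kept 3 DTMB, 2 vehicle and 1 normal-diet library (replicate 2) in the HFD cohort, whose spread then came from the other 2 groups. In bulk tissue, fewer cells of a type and less RNA per cell cannot be told apart. Levels below are CPM of the TMM-scaled library, which are comparable within a cohort and not between cohorts. A gene is called higher or lower where its adjusted p in edgeR's quasi-likelihood test, by Benjamini-Hochberg over all genes tested, is under 0.05, and fold changes are on the log2 scale with their standard error (SE).

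Per kilobase of exon, the order of the genes spanned a wide range. In HFD DTMB livers Zfp36 led with a mean of 14.1 CPM per kb, followed by Ier2 at 9.51, Junb at 8.05, Dusp1 at 4.28, Jun at 3.68, Egr1 at 3.20, Klf6 at 1.95, Myc at 0.731, Fos at 0.277 and Fosb at 0.0314 CPM per kb. The ranges over the 4 libraries did not overlap between Zfp36 and Ier2, Junb and Dusp1, Klf6 and Myc, or Fos and Fosb. They overlapped between all other neighbours in this order. Fos and Fosb were the lowest in all 6 groups, and Zfp36 was the highest in all 6. In MCD vehicle livers Zfp36 (12.7 ± 3.5 CPM per kb) and Junb (12.6 ± 6.2 CPM per kb, SD, n = 4 each) did not differ beyond their spread. Klf6 stood at 6.67 and 8.74 CPM per kb in MCD DTMB and MCD vehicle livers, against 1.96 CPM per kb in normal-diet livers of that cohort.

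**Figure D1:**
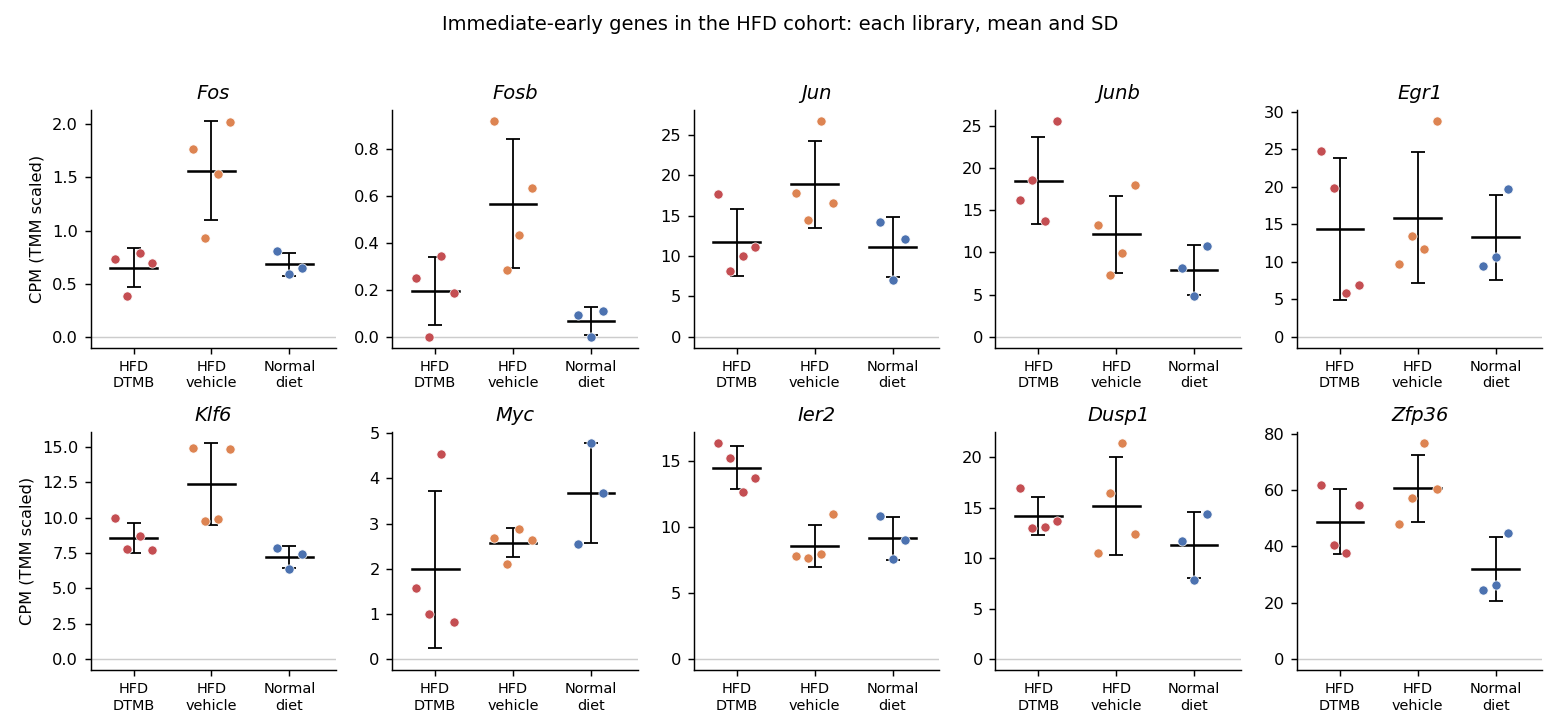
Level of each gene in CPM (TMM scaled, vertical axes) in the HFD cohort, with DTMB, vehicle and normal-diet groups from left to right. Points are libraries and bars the mean ± SD. Fos in HFD DTMB livers lay below every HFD vehicle library, and Ier2 lay above every one.

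In the HFD cohort 4 of the 10 genes were higher in HFD vehicle livers than in normal-diet livers and none was lower: Fos, Fosb, Klf6 and Zfp36. DTMB livers differed from HFD vehicle livers in 3 genes, with Fos and Klf6 lower and Ier2 higher. DTMB livers differed from normal-diet livers in 2, Junb and Ier2, both higher. Of 15597 genes tested, 15.2% were called higher and 12.6% lower in HFD vehicle against normal diet. The shares were 6.64% higher and 6.04% lower in DTMB against HFD vehicle, and 15.7% higher and 13.5% lower in DTMB against normal diet. The median log2 fold change of the 10 genes was 0.69 in HFD vehicle against normal diet, beside 0.015 over all genes tested. It was -0.34 in DTMB against HFD vehicle, beside -0.015 over all genes. Without the libraries with acinar transcripts, 2 of the 10 were called higher on HFD, and 2 higher and 1 lower in DTMB against normal diet. Those fits called far fewer genes of any kind, 655 against 4332 on HFD and 1022 against 4554 in DTMB against normal diet. In DTMB against HFD vehicle such a fit called 0 of all genes, against 1978 with every library, so a call lost there says nothing about a particular gene, and the sizes below are the values to compare. The comparisons share libraries: the HFD vehicle livers enter the first and the second with opposite sign, so a high value in them moves both.

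Fos (chromosome 12, 85473890 to 85477274, plus strand, mm10) was a low transcript of few reads, 19 to 131 counts per library in this cohort. It stood at 0.737, 0.382, 0.79 and 0.694 CPM in HFD DTMB livers, 1.77, 0.931, 1.53 and 2.03 CPM in HFD vehicle livers and 0.805, 0.595 and 0.644 CPM in normal-diet livers. Every HFD vehicle library lay above every library of the other groups, which overlapped each other. The log2 fold change was -1.26 ± 0.29 in DTMB against vehicle (adjusted p = 0.0198) and 1.19 ± 0.31 in vehicle against normal diet (adjusted p = 0.0142). DTMB livers differed from normal-diet livers by -0.06 ± 0.32 (95% interval -0.75 to 0.63). Without the libraries with acinar transcripts the change was -1.02 ± 0.38 with DTMB and 1.03 ± 0.55 on HFD, close to the values with every library, and neither was called (adjusted p = 0.331 and 0.339) in fits that called 0 and 655 of all genes. The DTMB call was also lost in 3 of 11 fits that left out 1 library, with adjusted p up to 0.061 without vehicle replicate 1. The diet call was lost without normal-diet replicate 2 (adjusted p = 0.0538).

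Fosb, another AP-1 partner of the Jun proteins (chromosome 7, 19302696 to 19310118, minus strand), was close to the limit of detection. It had 14, 0, 21 and 11 reads in HFD DTMB livers, 60, 18, 27 and 41 in HFD vehicle livers and 6, 0 and 6 in normal-diet livers. All HFD vehicle libraries lay above all normal-diet libraries, and the DTMB libraries overlapped both. The log2 fold change on HFD was 3.00 ± 0.90 (adjusted p = 0.0271). With DTMB the value was -1.51 ± 0.71 (adjusted p = 0.173), not called. The diet call was lost in 4 of 11 fits without 1 library (adjusted p up to 0.0823, without normal-diet replicate 2), and without the acinar libraries the only normal-diet library left had 0 reads.

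Jun, the partner that lets Fos bind DNA (chromosome 4, 95049036 to 95052222, minus strand), stood at 17.7, 8.13, 10.1 and 11.1 CPM in HFD DTMB livers, 17.8, 14.4, 26.8 and 16.6 CPM in HFD vehicle livers and 14.2, 6.98 and 12.2 CPM in normal-diet livers. Every vehicle library was above every normal-diet library, yet the log2 fold change of 0.76 ± 0.30 was not called (adjusted p = 0.0742). DTMB replicate 1 lay within the vehicle range and the other 3 below it, with a value of -0.69 ± 0.27 (adjusted p = 0.11). Junb (chromosome 8, 84976909 to 84978748, minus strand) ran the other way with DTMB, at 16.2, 18.6, 13.7 and 25.6 CPM in HFD DTMB livers, 13.2, 7.38, 9.92 and 18 CPM in HFD vehicle livers and 8.16, 4.85 and 10.8 CPM in normal-diet livers. All DTMB libraries were above all normal-diet libraries, and the difference of 1.22 ± 0.32 was called (adjusted p = 0.0145). It was lost without normal-diet replicate 2 (adjusted p = 0.0566). Without the acinar libraries the difference was 2.04 ± 0.31, where the normal-diet side was replicate 2 alone, the lowest of its group for Junb. The vehicle group lay between and overlapped both, so neither DTMB against vehicle (0.61 ± 0.29, adjusted p = 0.176) nor vehicle against normal diet (0.61 ± 0.32, adjusted p = 0.175) was called. Exons of Jun overlap those of the antisense gene Junos, and exons of Junb those of Prdx2 on the opposite strand. The kit keeps strand, but whether counting used it is not given in the sources used here, so some reads of these genes may belong to those neighbours.

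Klf6, a zinc-finger factor of liver repair (chromosome 13, 5861489 to 5870393, plus strand), stood at 9.99, 7.79, 8.72 and 7.68 CPM in HFD DTMB livers, 14.9, 9.79, 9.87 and 14.8 CPM in HFD vehicle livers and 7.87, 6.33 and 7.41 CPM in normal-diet livers. Vehicle replicates 1 and 4 were high, at about the same level, and replicates 2 and 3 lay beside the highest DTMB library. The log2 fold change was -0.53 ± 0.15 in DTMB against vehicle (adjusted p = 0.0434) and 0.78 ± 0.17 in vehicle against normal diet (adjusted p = 0.00541). The 2 high vehicle libraries are those with acinar transcripts. Without the acinar libraries the values were -0.21 ± 0.14 and 0.62 ± 0.20, neither called (adjusted p = 0.524 and 0.137), where 0 and 655 of all genes were. The DTMB call also held in only 5 of 11 fits that left out 1 library, with adjusted p up to 0.125 without vehicle replicate 1, while the diet call held in all 11. Egr1 (chromosome 18, 34861207 to 34864956, plus strand) spread widely inside each group, at 24.8, 19.9, 5.86 and 6.89 CPM in HFD DTMB livers, 9.66, 13.5, 11.7 and 28.8 CPM in HFD vehicle livers and 9.4, 10.7 and 19.7 CPM in normal-diet livers. All 3 groups overlapped and none of its differences was called. Its value with DTMB was -0.15 ± 0.48 (95% interval -1.18 to 0.88).

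Myc (chromosome 15, 61985341 to 61990361, plus strand) stood at 1.58, 1.01, 4.54 and 0.812 CPM in HFD DTMB livers, 2.67, 2.11, 2.89 and 2.63 CPM in HFD vehicle livers and 2.55, 4.78 and 3.68 CPM in normal-diet livers. Of the DTMB libraries, 3 lay below every other library of the cohort and replicate 3, one of the acinar libraries, lay near the top. With it, DTMB against normal diet was -0.88 ± 0.47 and not called (adjusted p = 0.187). Without the acinar libraries it was -2.09 ± 0.35, where the normal-diet side was replicate 2 alone, the highest of its group for Myc. In fits without 1 library, DTMB against normal diet was called only when DTMB replicate 3 was left out, at -1.69 (adjusted p = 0.00172). DTMB against HFD vehicle was likewise called only then, at -1.18 (adjusted p = 0.0382), against -0.37 ± 0.44 with all libraries (adjusted p = 0.604).

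Ier2 (chromosome 8, 84661331 to 84662852, minus strand) gave the smallest adjusted p of the 10 genes in DTMB against HFD vehicle. It stood at 16.3, 15.2, 12.6 and 13.7 CPM in HFD DTMB livers, 7.77, 7.63, 7.92 and 11 CPM in HFD vehicle livers and 10.8, 7.56 and 9.03 CPM in normal-diet livers. All DTMB libraries were above all others, and vehicle and normal-diet libraries overlapped. The change was 0.76 ± 0.14 against vehicle (adjusted p = 0.011) and 0.66 ± 0.15 against normal diet (adjusted p = 0.0071). Both calls held in all 11 fits that left out 1 library. Without the acinar libraries the change against vehicle was larger, 0.95 ± 0.11, but not called (adjusted p = 0.0906) in a fit that called 0 of all genes. That against normal diet was 0.98 ± 0.15, where the normal-diet side was replicate 2 alone, the lowest of its group for Ier2. Vehicle against normal diet was -0.09 ± 0.15 (adjusted p = 0.686), with a sign that turned without the acinar libraries (0.03 ± 0.15).

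Of the brakes, Zfp36 (chromosome 7, 28376784 to 28379228, minus strand) stood at 61.9, 40.6, 37.9 and 54.9 CPM in HFD DTMB livers, 47.9, 57.2, 76.8 and 60.6 CPM in HFD vehicle livers and 24.7, 26.4 and 44.9 CPM in normal-diet livers. All vehicle libraries were above all normal-diet libraries, and DTMB libraries overlapped both. The change on HFD was 0.92 ± 0.24 (adjusted p = 0.013). Without the acinar libraries it was 1.33 ± 0.27, where the normal-diet side was replicate 2 alone. The diet call was lost in 2 of 11 fits without 1 library (adjusted p up to 0.0645, without normal-diet replicate 1). DTMB against vehicle was -0.31 ± 0.21 (adjusted p = 0.345). Dusp1 (chromosome 17, 26505591 to 26508472, minus strand) stood at 16.9, 13, 13.1 and 13.7 CPM in HFD DTMB livers, 10.5, 16.4, 21.4 and 12.4 CPM in HFD vehicle livers and 11.7, 7.87 and 14.4 CPM in normal-diet livers. Its groups overlapped, and with DTMB the value was -0.10 ± 0.22 (95% interval -0.57 to 0.38), not called. On HFD it was 0.42 ± 0.24 (adjusted p = 0.21). It was called without the acinar libraries (1.25 ± 0.23, adjusted p = 0.0304), where the normal-diet side was replicate 2 alone, the lowest of its group for Dusp1. Exons of both genes overlap a gene on the opposite strand, Gm44710 for Zfp36 and Ergic1 for Dusp1.

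**Figure D2:**
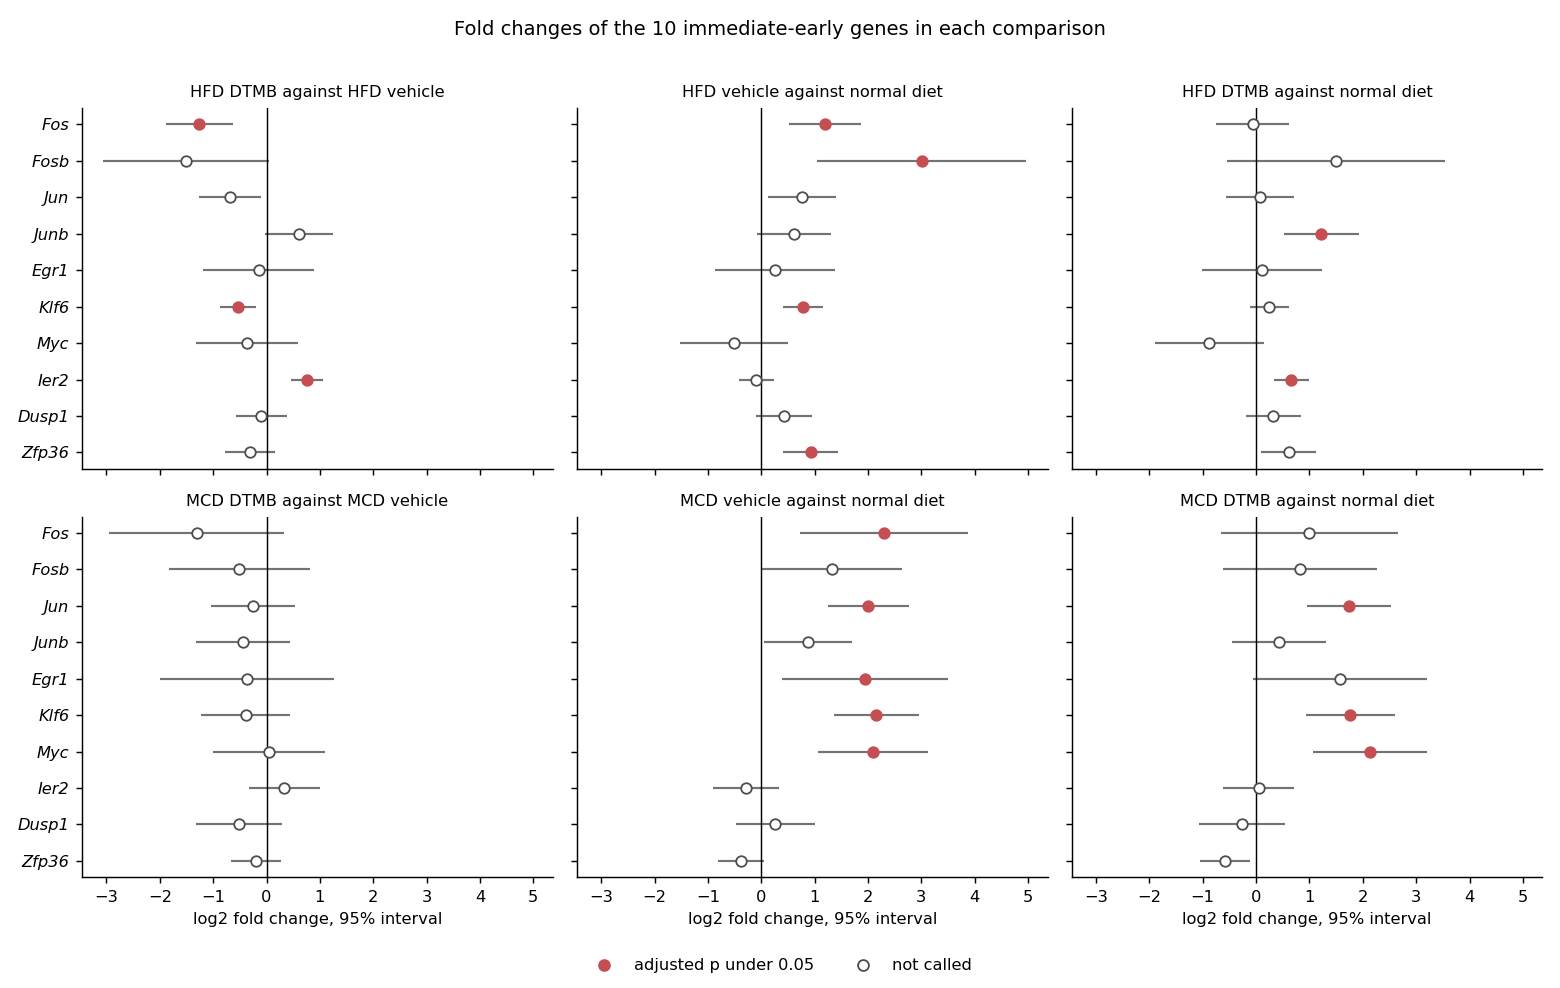
Log2 fold change of each gene (points, with 95% intervals) in the 3 comparisons of the HFD cohort (top) and of the MCD cohort (bottom). Red points passed an adjusted p of 0.05: in DTMB against vehicle 3 in the HFD cohort and none in the MCD cohort.

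Other genes of the same program were described from lists. Beside them, 15.2% of all genes tested were called higher and 12.6% lower in HFD vehicle against normal diet. The shares were 6.64% and 6.04% in DTMB against HFD vehicle, and 15.7% and 13.5% in DTMB against normal diet. Among 30 other immediate-early genes tested in the HFD cohort, 6 were higher and 4 lower in HFD vehicle against normal diet, with a list median of 0.099 beside 0.015 over all genes. Ccn2, a matricellular YAP target, had the smallest p there and was lower (-1.04 ± 0.17). In DTMB against HFD vehicle 1 was higher and 2 lower. These were Klf10, a TGF-beta-inducible factor (1.11 ± 0.30), Egr2, a zinc-finger relative of Egr1 (-3.09 ± 0.60), and Ier3, a stress-induced survival gene also counted below among the AU-rich mRNAs (-1.22 ± 0.35). In DTMB against normal diet 6 were higher and 8 lower. Of 13 other AP-1 and Maf genes, 4 were higher and 2 lower on HFD, led by the stress factor Atf3 (2.38 ± 0.59). With DTMB against vehicle, the small Maf genes Mafg (0.50 ± 0.08) and Maff (1.05 ± 0.23) were higher and Jund, a constitutive AP-1 subunit, was lower (-0.38 ± 0.11).

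The mRNAs bound by tristetraprolin, the relatives of Dusp1, the kinases upstream and the targets of Myc were also counted. The shares of all genes are again 15.2% higher and 12.6% lower on HFD, and 6.64% and 6.04% with DTMB against vehicle. Of 6 mRNAs that tristetraprolin is known to bind and that were tested, 3 were higher on HFD: the chemokines Cxcl1 (3.08 ± 0.40), Ccl2 (3.04 ± 0.50) and Ccl3, for which no fold is given because it had at most 0.0368 CPM in any normal-diet library. With DTMB against vehicle 4 of the 6 were lower, led by Ccl2 (-2.58 ± 0.44), and none was higher, with a list median of -1.86. Of 8 other MAP kinase phosphatases, Dusp14 was higher (2.00 ± 0.47) and Dusp8 lower (-1.33 ± 0.40) on HFD, and none was called with DTMB against vehicle. Of 22 kinases and factors that act upstream, the MAP kinases that Dusp1 acts on among them, 3 were higher and 7 lower on HFD, led by the JNK gene Mapk8 (-0.55 ± 0.09). With DTMB against vehicle 1 was higher and 4 lower, led by the ribosomal S6 kinase gene Rps6ka1 (-1.07 ± 0.17). Of 20 Myc target genes, 6 were lower and none higher on HFD, with a list median of -0.20, led by the glycolytic enzyme Ldha (-0.60 ± 0.09). With DTMB against vehicle 3 were higher and none lower: Odc1 of polyamine synthesis (0.40 ± 0.09), the tRNA methyltransferase Mettl1 (0.44 ± 0.11) and spermidine synthase Srm (0.33 ± 0.09). Both Egr1 corepressors were lower on HFD (Nab1 -0.39 ± 0.07, Nab2 -0.65 ± 0.14), and Nab2 was higher with DTMB against vehicle (0.81 ± 0.13).

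Immune cells also express these genes. The summed level of 13 monocyte and macrophage markers was 82.9 to 134 CPM in HFD DTMB livers, 92.8 to 244 CPM in HFD vehicle livers and 61.6 to 109 CPM in normal-diet livers. The 2 highest libraries were vehicle replicates 1 and 4, the same in which Fos and Klf6 were highest. Of the 13 markers, 6 were called higher and 0 lower on HFD, with a list median of 1.03. With DTMB against vehicle 2 were lower and 0 higher, with a list median of -1.04. In DTMB against normal diet 1 was higher and 0 lower. Summed neutrophil markers (9 genes) were 1.15 to 1.99 CPM in DTMB, 1.31 to 4.91 CPM in vehicle and 0.784 to 2.53 CPM in normal-diet livers, with 2, 1 and 2 of the markers at 0 in all libraries of those groups. The 8 heat shock genes, which rise with handling stress, showed no call in DTMB against vehicle or in vehicle against normal diet. In DTMB against normal diet, where Junb and Ier2 were called, 2 of the 8 were lower, Hspb1 (-0.90 ± 0.23) and Bag3 (-0.55 ± 0.18). Of 5 erythroid markers, 5 were higher in DTMB against normal diet and 2 in DTMB against vehicle. Their sum was 1687 CPM in DTMB replicate 2 and 576 to 782 CPM in the other DTMB livers, against 583 to 626 CPM in HFD vehicle livers and 346 to 467 CPM in normal-diet livers. Of 6 endothelial markers, 3 were lower in DTMB against normal diet and 1 in DTMB against vehicle. The part of these cells or of tissue stress in the differences of Fos, Klf6, Junb and Ier2 was not tested.

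**Figure D3:**
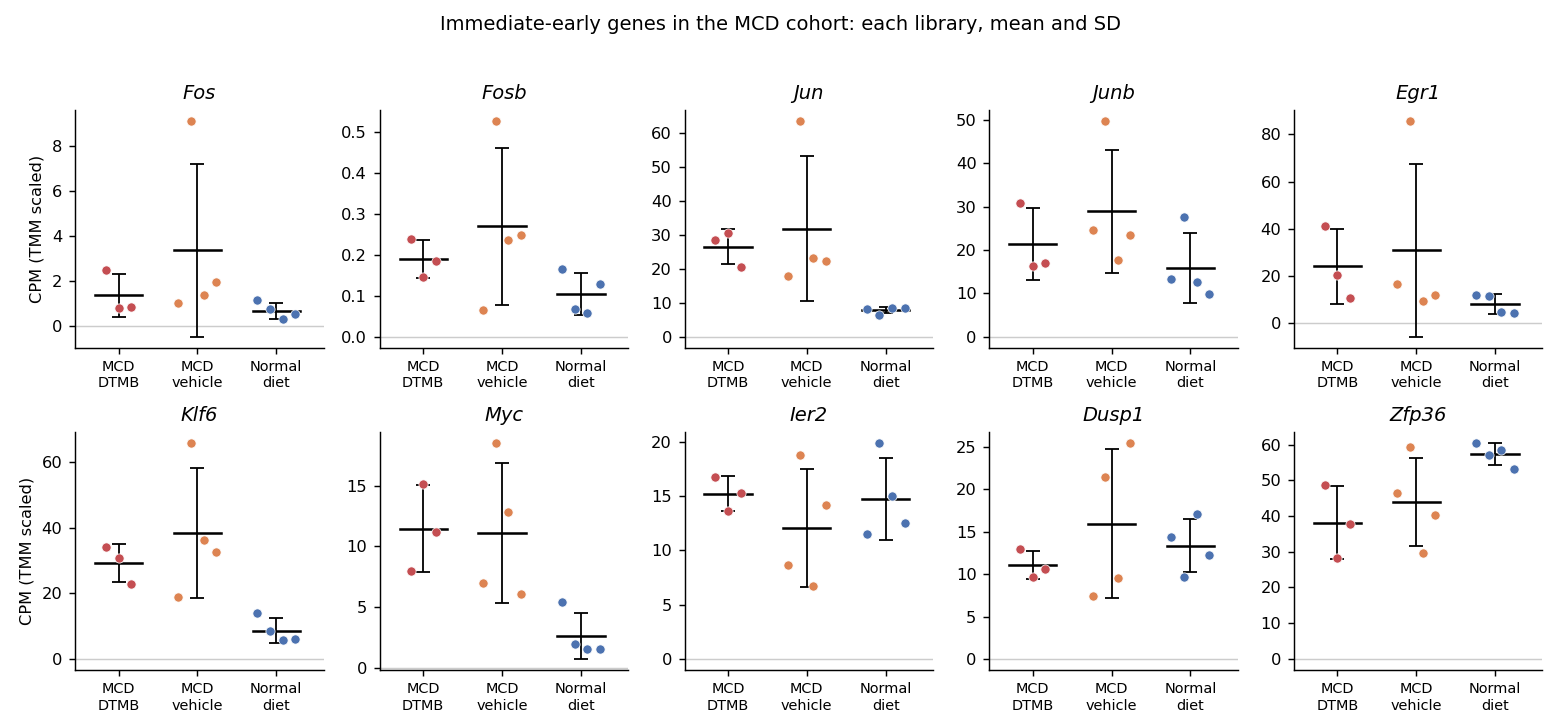
Level of each gene in CPM (TMM scaled, vertical axes) in the MCD cohort, with DTMB, vehicle and normal-diet groups from left to right. Points are libraries and bars the mean ± SD. Jun, Klf6 and Myc in both MCD groups lay above every normal-diet library, and one vehicle library lay far above the rest for Fos, Jun and Egr1.

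On MCD 5 of the 10 genes were higher in vehicle livers than in normal-diet livers by edgeR and none was lower: Fos, Jun, Egr1, Klf6 and Myc. Limma-voom called 4 of these, without Egr1, and called Zfp36 (-0.71 ± 0.19) and Ier2 (-0.81 ± 0.24) lower. In DTMB livers against normal-diet livers 3 were higher, Jun, Klf6 and Myc. DTMB against MCD vehicle gave no call among the 10. Of 16037 genes tested, 20.3% were called higher and 21% lower in MCD vehicle against normal diet. In DTMB against normal diet the shares were 16.2% higher and 16.4% lower. In DTMB against MCD vehicle they were 0.00624% higher, which is 1 gene, and 0% lower, while 857 genes had an unadjusted p under 0.05. DESeq2 and limma-voom called 13 and 0 genes in that comparison, none of them among the 10, of which 0 had an unadjusted p under 0.05 in edgeR. The median log2 fold change of the 10 genes was 1.64 in MCD vehicle against normal diet, beside 0.0039 over all genes tested. TMM factors were 0.785 to 0.894 in normal-diet livers and 1.03 to 1.21 in MCD livers. Scaled by library total alone, the median over all genes in MCD vehicle against normal diet moved to 0.47, and values below are relative to the TMM scale.

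Vehicle replicate 2 stood apart: it was the highest of its group for 9 of the 10 genes, at a median of 2.24 times the middle of the other 3 libraries. The same library had the highest summed macrophage markers (872 CPM, against 308 to 551 CPM in the other MCD vehicle libraries), stellate cell markers (249 CPM, against 151 to 170.0 CPM) and neutrophil markers (8.36 CPM, against 2.82 to 4.92 CPM). Its heat shock sum was 2911 CPM, against 2915 to 4098 CPM in the other 3. Values without it are given beside those with it. It was singled out by the levels of these same genes. Leaving it out lowers their vehicle mean, so a call gained without it is no separate support. The part of those cells in the levels of these genes was not tested.

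Jun stood at 28.4, 30.4 and 20.7 CPM in MCD DTMB livers, 17.9, 63.5, 23.3 and 22.4 CPM in MCD vehicle livers and 8.1, 6.52, 8.44 and 8.59 CPM in normal-diet livers. The normal-diet libraries were tight and all MCD libraries lay above them. The change was 2.00 ± 0.35 in vehicle against normal diet (adjusted p = 0.000846) and 1.74 ± 0.36 in DTMB against normal diet (adjusted p = 0.00364). Without vehicle replicate 2 the diet change was 1.42 ± 0.16 and its adjusted p was smaller, 8.41e-05. Jun was called in all 11 fits without 1 library in both comparisons. DTMB against vehicle was -0.26 ± 0.36, and 0.32 ± 0.17 without that library, neither called (adjusted p = 0.949 and 1.00).

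Klf6 stood at 34.2, 30.8 and 22.8 CPM in MCD DTMB livers, 18.8, 65.9, 36.4 and 32.5 CPM in MCD vehicle livers and 13.9, 8.44, 5.83 and 6.19 CPM in normal-diet livers. Every MCD library was above every normal-diet library. Its change on MCD was 2.16 ± 0.37 (adjusted p = 0.000755), and 1.76 ± 0.31 without vehicle replicate 2 (adjusted p = 0.0014). DTMB against normal diet was 1.77 ± 0.38 (adjusted p = 0.00454). Both calls held in all 11 fits without 1 library. Between DTMB and vehicle it was -0.39 ± 0.38 with all libraries and 0.0015 ± 0.33 without vehicle replicate 2.

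Myc stood at 7.98, 15.2 and 11.2 CPM in MCD DTMB livers, 7.01, 18.5, 12.9 and 6.05 CPM in MCD vehicle livers and 5.42, 1.94, 1.53 and 1.51 CPM in normal-diet livers. Normal-diet replicate 1 was high for its group and just under the lowest MCD library. The change was 2.09 ± 0.47 on MCD (adjusted p = 0.00416) and 2.13 ± 0.49 in DTMB against normal diet (adjusted p = 0.00644), and both held in all 11 fits without 1 library. Without vehicle replicate 2 the change on MCD was 1.73 ± 0.45 (adjusted p = 0.0125). Between DTMB and vehicle the value was 0.04 ± 0.48 (adjusted p = 0.996), and 0.41 ± 0.48 without that library.

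Fos stood at 2.48, 0.79 and 0.838 CPM in MCD DTMB livers, 1.03, 9.14, 1.39 and 1.95 CPM in MCD vehicle livers and 1.15, 0.744, 0.29 and 0.539 CPM in normal-diet livers. Vehicle replicate 2 alone exceeded 3 CPM, and the groups overlapped. The change of 2.31 ± 0.72 on MCD (adjusted p = 0.0232) was 1.09 ± 0.50 without that library and not called (adjusted p = 0.11). In all it was lost in 3 of 11 fits without 1 library, among them that without the acinar library, normal-diet replicate 4 (2.21 ± 0.83, adjusted p = 0.0577). DTMB against vehicle was -1.31 ± 0.75 with all libraries and -0.093 ± 0.53 without vehicle replicate 2. Egr1 followed the same pattern, at 41.3, 20.2 and 10.3 CPM in MCD DTMB livers, 16.4, 85.7, 9.27 and 11.8 CPM in MCD vehicle livers and 11.9, 11.3, 4.72 and 4.1 CPM in normal-diet livers. Its change on MCD was 1.95 ± 0.72 (adjusted p = 0.0463) and 0.64 ± 0.48 without vehicle replicate 2 (adjusted p = 0.311). The call was lost in 6 of 11 fits without 1 library, among them that without the acinar library (1.73 ± 0.79, adjusted p = 0.109). For Egr1, DTMB against vehicle was -0.37 ± 0.74 with all libraries and 0.94 ± 0.51 without that library, a change of sign in a value called in neither. DTMB against normal diet was 1.58 ± 0.75 (adjusted p = 0.126) with it and called without it (1.58 ± 0.48, adjusted p = 0.0248). That comparison does not hold the library: the value stayed and the SE, from the spread shared by the fit, fell.

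Fosb had 13, 10 and 11 reads in MCD DTMB livers, 5, 40, 18 and 16 in MCD vehicle livers and 9, 3, 3 and 6 in normal-diet livers. All 3 groups overlapped. Its change on MCD was 1.33 ± 0.60 (adjusted p = 0.0954), not called, and with DTMB against vehicle it was -0.51 ± 0.61. Without vehicle replicate 2 these were 0.77 ± 0.57 and 0.048 ± 0.58. Junb stood at 30.9, 16.2 and 17 CPM in MCD DTMB livers, 24.7, 49.8, 17.8 and 23.6 CPM in MCD vehicle livers and 13.3, 27.7, 12.6 and 9.77 CPM in normal-diet livers. Normal-diet replicate 2 was above 3 of the 4 vehicle libraries, and the change of 0.87 ± 0.38 was not called (adjusted p = 0.0831). For Junb the value with DTMB against vehicle was -0.44 ± 0.41 (adjusted p = 0.933). Without vehicle replicate 2 Junb stood at 0.47 ± 0.34 on MCD and -0.044 ± 0.36 with DTMB.

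Zfp36 was not called on MCD with all libraries. It stood at 48.6, 28.3 and 37.6 CPM in MCD DTMB livers, 46.6, 59.2, 29.7 and 40.4 CPM in MCD vehicle livers and 60.4, 57.1, 58.5 and 53.1 CPM in normal-diet livers. All DTMB libraries and 3 of the 4 vehicle libraries were below every normal-diet library, and vehicle replicate 2 lay among them. The values were -0.59 ± 0.22 in DTMB and -0.38 ± 0.20 in vehicle against normal diet, neither called (adjusted p = 0.0559 and 0.141). Without vehicle replicate 2 both were called, at -0.59 ± 0.18 and -0.56 ± 0.18 (adjusted p = 0.0297 and 0.0343). The DTMB comparison does not hold that library: its value stayed and only its SE, from the spread shared by the fit, fell. The vehicle value moved down because a high library was removed. Scaled by library total alone the vehicle value was 0.085 ± 0.21, beside 0.47 over all genes, and the DTMB value -0.22 ± 0.23, beside 0.37. Zfp36 lay below the median gene under both scalings. A change of scaling moves all genes by about the same amount, so the second is no separate check. Between DTMB and vehicle it was -0.20 ± 0.21, and -0.028 ± 0.19 without vehicle replicate 2. Its paralog Zfp36l2 was higher in vehicle (1.13 ± 0.27) and DTMB (0.82 ± 0.29) against normal diet. The other paralog tested, Zfp36l1, stood at -0.28 ± 0.19 and -0.51 ± 0.21 there, neither called (adjusted p = 0.259 and 0.083).

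Ier2 and Dusp1 showed no call on MCD by edgeR. Ier2 stood at 16.8, 13.6 and 15.3 CPM in MCD DTMB livers, 8.68, 18.8, 6.7 and 14.1 CPM in MCD vehicle livers and 11.5, 19.9, 15 and 12.5 CPM in normal-diet livers. Vehicle libraries spread more widely than either other group. For Ier2 the change on MCD was -0.29 ± 0.28, and -0.58 ± 0.25 without vehicle replicate 2 (adjusted p = 0.436 and 0.0912). DTMB against vehicle was 0.34 ± 0.30 (95% interval -0.32 to 0.99), and 0.63 ± 0.27 without that library. The interval with all libraries holds the value of 0.76 ± 0.14 seen in the HFD cohort, and the difference between cohorts was -0.44 ± 0.35 (adjusted p = 0.787). Dusp1 stood at 12.9, 9.71 and 10.6 CPM in MCD DTMB livers, 7.46, 21.4, 9.5 and 25.4 CPM in MCD vehicle livers and 14.3, 9.7, 17 and 12.2 CPM in normal-diet livers. Vehicle replicates 2 and 4 were high and replicates 1 and 3 low, on either side of the other groups. The values for Dusp1 were -0.52 ± 0.37 in DTMB against vehicle and 0.26 ± 0.34 in vehicle against normal diet (adjusted p = 0.923 and 0.569). Without vehicle replicate 2 they were -0.35 ± 0.39 and 0.082 ± 0.36.

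The list counts of the MCD cohort stand beside 20.3% of all genes called higher and 21% lower in vehicle against normal diet. In DTMB against normal diet the shares were 16.2% and 16.4%. Among 32 other immediate-early genes tested in the MCD cohort, 15 were higher and 3 lower in vehicle against normal diet, with a list median of 0.93 beside 0.0039 over all genes. Ier3 had the smallest p (3.36 ± 0.39). In DTMB against normal diet 10 were higher and 3 lower, and in DTMB against MCD vehicle none was called. Of 14 other AP-1 and Maf genes, 6 were higher on MCD and none lower, with a list median of 0.57, led by Atf3 (4.39 ± 0.37). Of 10 other MAP kinase phosphatases, 5 were higher and none lower, with a list median of 1.03, led by Dusp5 (2.06 ± 0.41). Of 7 mRNAs bound by tristetraprolin, 5 were higher and none lower, with a list median of 2.79, led by Ier3, which is on both lists. Myc targets had 4 of 20 higher and none lower, close to the 20.3% of all genes called higher, with a list median of 0.084, led by Odc1 (1.22 ± 0.17). In DTMB against normal diet 4 of the 20 were higher and 2 lower. Of 11 partners and relatives of Myc, 3 were higher and 1 lower, the last Mlxipl, a glucose-sensing factor (-1.44 ± 0.25). Of 22 kinases and factors that act upstream of these genes, 4 were higher and 3 lower, the EGF receptor Egfr (-2.56 ± 0.33) among the latter. Those counts did not exceed the shares of all genes. Heat shock genes had 3 of 8 higher and 1 lower, Hspb1 (-1.23 ± 0.19). Summed macrophage markers were 210.3 to 403 CPM in MCD DTMB, 308 to 872 CPM in MCD vehicle and 69.1 to 227 CPM in normal-diet livers. Summed stellate cell markers were 125.0 to 137 CPM in MCD DTMB, 151 to 249 CPM in MCD vehicle and 48.7 to 107 CPM in normal-diet livers. In vehicle against normal diet 5 of 6 neutrophil markers tested were higher, while 11 of 13 mitochondrially encoded genes, 5 of 5 erythroid markers and 3 of 7 hepatocyte markers were lower. How far these shifts in cell types, RNA or tissue stress contributed was not tested.

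The effect of diet differed between the cohorts in 4 genes. In a joint fit of both cohorts, the MCD change minus the HFD change, each against its own normal-diet group, was 1.27 ± 0.49 for Jun, 1.41 ± 0.44 for Klf6 and 2.63 ± 0.71 for Myc (adjusted p = 0.047, 0.0162 and 0.00717). For Zfp36 it was -1.27 ± 0.33 (adjusted p = 0.00537), this gene being called higher on HFD and not on MCD. Of 16541 genes tested, 16.8% had a larger change on MCD at this threshold and 18.5% a smaller one. Klf6, Myc and Zfp36 were called in all 22 fits without 1 library, and Jun in 7 of 22. Without MCD vehicle replicate 2 Jun stood at 0.68 ± 0.36 (adjusted p = 0.149). Without the acinar libraries Myc stood at 2.87 ± 0.83, Zfp36 at -1.72 ± 0.44, Jun at 0.53 ± 0.74 and Klf6 at 1.43 ± 0.64. In that fit the normal-diet side of the HFD cohort was replicate 2 alone. For Fos the difference was 1.15 ± 0.85 (95% interval -0.62 to 2.91), not called, and -0.077 ± 0.61 without MCD vehicle replicate 2. Diet and cohort, which the labels also give as the batch, cannot be told apart beyond the normal-diet group each carries. A difference in the DTMB effect between the cohorts was called in none of the 10 genes, and 0% of all genes were called higher or lower there by edgeR, while 1415 had an unadjusted p under 0.05. DESeq2 called 38 genes, none of the 10, of which 0 had an unadjusted p under 0.05 in edgeR. For Fos the MCD value minus the HFD value was -0.08 ± 0.84, with a 95% interval of -1.84 to 1.68. For Junb it was -1.07 ± 0.54 (-2.19 to 0.05).

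**Figure D4:**
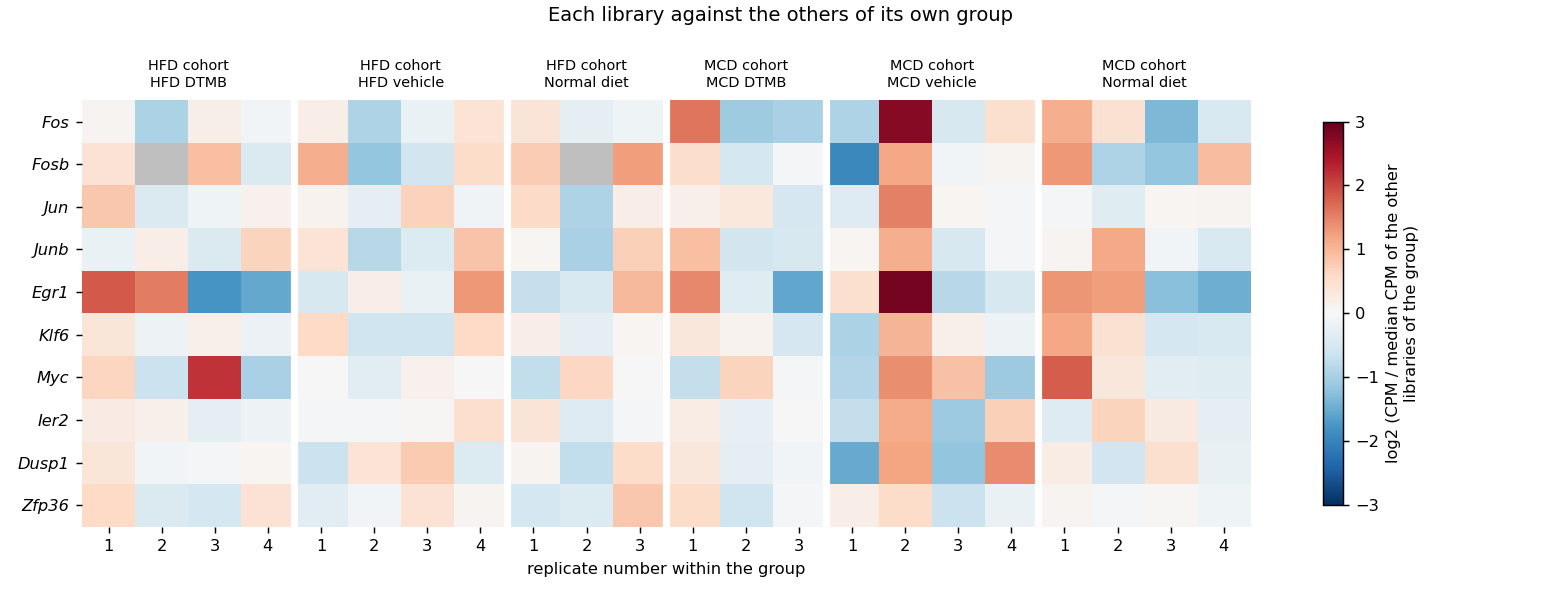
Each library's level of each gene as the log2 ratio to the median of the other libraries of its group. Columns are libraries, grouped from left to right as DTMB, vehicle and normal diet of the HFD and then the MCD cohort, and grey cells had no reads. In the column of MCD vehicle replicate 2 all 10 genes are above the median of the other libraries.

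Libraries of 1 group differed widely in these genes. Egr1 varied more than 89.1% to 98.6% of all genes tested in each of the 6 groups, by the SD of log2 CPM. For Fos the share was 59.1% in the normal-diet livers of the HFD cohort and 85.0% to 98.2% in the other 5 groups. Zfp36 had its smallest spread in the normal-diet livers of the MCD cohort, above 11.5% of genes. In MCD vehicle replicate 2 all 10 genes were above the median of the other 3 libraries, from 1.47 times for Zfp36 to 7.29 times for Egr1. MCD DTMB replicate 1 was the highest of its group for 8 genes. HFD vehicle replicate 2 and normal-diet replicate 2 of the HFD cohort were the lowest of their groups for 7 each.

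**Figure D5:**
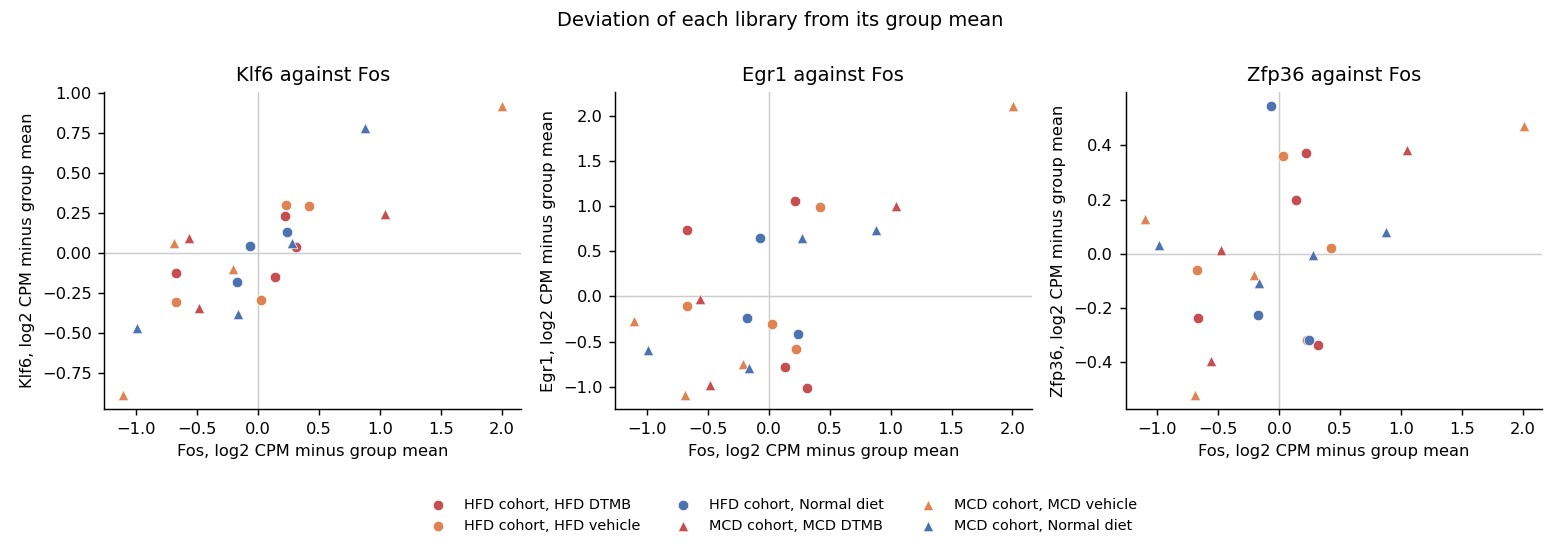
Deviation of each of the 22 libraries from its group mean in log2 CPM, Fos on the horizontal axes against Klf6, Egr1 and Zfp36 on the vertical axes. Circles are the HFD cohort and triangles the MCD cohort. Klf6 rose with Fos (r = 0.84), and MCD vehicle replicate 2 is the point farthest right in each panel.

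Within groups the genes went up and down together in part. After each group mean was removed, Klf6 followed Fos most closely over the 22 libraries (Pearson r = 0.84, Spearman rho = 0.76, adjusted permutation p = 9.00e-05 and 9.90e-04, the first being the smallest that these permutations can give). Fosb (r = 0.65, rho = 0.72) and Junb (r = 0.61, rho = 0.59) also passed by both measures, with adjusted p of 0.00423 for each r, and of 0.00113 and 0.0140 for rho. Jun (r = 0.63, rho = 0.47), Egr1 (r = 0.63, rho = 0.43) and Ier2 (r = 0.55, rho = 0.43) passed by r (adjusted p = 0.00423, 0.00423 and 0.0130) and not by rho (0.0608, 0.0687 and 0.0687). Zfp36, Myc and Dusp1 passed by neither, with r of 0.43, 0.42 and 0.36 (adjusted p = 0.0568, 0.0605 and 0.0963). Scaled by library total alone they passed by r (adjusted p = 0.0205, 0.0373 and 0.0497) and not by rho. Zfp36 also passed by r, not by rho, in the MCD cohort alone (r = 0.66, adjusted p = 0.0396), while its r was 0.061 in the HFD cohort alone. Over the 16 libraries without acinar transcripts Zfp36 passed by both measures (r = 0.63, rho = 0.59). Jun (rho = 0.55) and Egr1 (rho = 0.57) then passed by both as well, Ier2 by r alone, and Myc and Dusp1 by neither. All these p-values come from permutation tests with 100000 resamples, adjusted over the 9 pairs. The shuffles crossed groups, whose spread differed (SD of Fos 0.216 in normal-diet livers of the HFD cohort and 1.38 in MCD vehicle livers). They also took no account of the group means removed, so the p-values may be too small. Without the 2 libraries farthest in Fos, MCD vehicle replicates 1 and 2, Klf6, Fosb and Junb still passed (r = 0.72, 0.56 and 0.53). Jun, Egr1 and Ier2 did not (r = 0.29, 0.45 and 0.26). Leaving out libraries for their Fos level narrows its range and tends to lower r. Whether those relations rest on the 2 libraries is therefore not settled by this. Within the MCD cohort alone Egr1 (r = 0.88), Klf6 (0.86) and Fosb (0.81) led. Within the HFD cohort alone Fosb passed (r = 0.82), Klf6 did not after adjustment (r = 0.69, adjusted p = 0.0781), and Egr1 was at -0.16.

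Profiles over all 22 libraries, centred within each cohort, were compared by the root mean square difference of log2 CPM. The closest pair among the 10 genes was Jun and Klf6, at 0.396, followed by Dusp1 and Zfp36 at 0.427. Among 11005 other genes the nearest to Fos were Ifi207 (0.485), Fxyd5 (0.505) and Cd48 (0.528), where the median gene lay at 1.03. The nearest to Jun were Pgm1 (0.405), Tagln2 (0.406) and Rhob (0.407), the last an immediate-early GTPase gene. Myc was nearest to Abi2 (0.489), Slc6a8 (0.570) and Abhd2 (0.583).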

How the data were processed

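Liver RNA libraries (poly(A)-selected, stranded) were labelled as biological replicates, and p-values measure the spread between them. Per the submitters' processing notes the authors used FastQC 0.11.7, Trimmomatic 0.38, HISAT2 2.1.0 and StringTie 2.1.3b with build mm10. They deposited a table of raw counts per gene for each cohort, 50078966 to 66727450 counts per library, in which 20101 of 45777 genes had no count. Whether counting used strand is not given in the sources used here.

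From these counts, genes that passed edgeR 4.0.16's filter were scaled by TMM factors and tested with its quasi-likelihood test, all 3 groups of a cohort in 1 fit, with Benjamini-Hochberg adjustment over all genes tested. A joint fit of the 6 groups gave the differences between cohorts. Intervals used the t distribution of the fit. Alternatives used DESeq2 1.42.0, limma 3.58.1 (voom with quality weights), other scalings, filters and sample sets in R 4.3.3. Co-variation was tested with scipy 1.17.1 and figures were drawn with matplotlib 3.10.9 in Python 3.11.15. Code was tested on simulated data. Counts of 2 replicates differed by more than sampling noise throughout (a chi-square per degree of freedom of at least 24.9).

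The 10 genes and all gene lists were chosen with earlier results of these data known. All 10 are named in each comparison. Of other lists, the gene with the smallest p and any gene of a list with 3 or fewer calls are named, and for Fos, Jun and Myc the 3 nearest profiles among genes of at least 1 CPM in both cohorts.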

Additional observations from a re-analysis of the deposited data

Results flagged for a closer look

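In MCD vehicle replicate 2, Egr1 (85.7 CPM), Fos (9.14 CPM) and Jun (63.5 CPM) lay farther above the other 3 libraries of the group than Dixon's test allows at the 95% level. Ier2 did so in HFD vehicle replicate 4 (10.96 CPM), and Myc in the MCD cohort in replicate 1 on normal diet (5.42 CPM). These are 5 of 40 sets of 4 libraries tested. The test used CPM that were not on a log scale, and Egr1, Fos and Jun were flagged in the same library. The sets are therefore not independent, and the nominal rate of 1 in 20 cannot be set against the 5. The change on MCD minus that on HFD, each against its own normal-diet group, passed the edgeR test of that difference for Jun (1.27), Klf6 (1.41), Myc (2.63) and Zfp36 (-1.27) on the log2 scale.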

How the results depend on the processing

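Of 1851 values of the 10 genes under alternative settings, 1684 kept direction and call, 71 lost a call and 28 gained one. The other 68 were uncalled values whose sign turned and that stayed uncalled, 47 of them without 1 library, and 26 of the 80 results of the 10 genes had a turned sign somewhere. Counting only genes past an absolute log2 fold change of 1 left 2 of 4 calls in HFD vehicle against normal diet, 1 of 3 in HFD DTMB against HFD vehicle and 1 of 2 in HFD DTMB against normal diet. One fit of all libraries left 2, 0 and 1 calls in the same comparisons. Limma-voom gave 2 calls in HFD vehicle against normal diet, 4 higher and 2 lower in MCD vehicle against normal diet, and 5 (4 higher, 1 lower), against 3, in MCD DTMB against normal diet, where a fit of only those 2 groups also gave 5 (4 higher, 1 lower) and DESeq2 gave 3 higher and 1 lower, Zfp36. Without the libraries with acinar transcripts there were 2 calls in HFD vehicle against normal diet, 0 in HFD DTMB against HFD vehicle, 3 of 5 in MCD vehicle against normal diet and 2 of 4 in the cohort difference of the diet effect, with fewer samples fitted: over all genes those fits called 655 of 4332, 0 of 1978, 5739 of 6626 and 2285 of 5847. Leaving out each library in turn gave 1 to 5 calls in HFD vehicle against normal diet, 1 to 4 in HFD DTMB against HFD vehicle, 1 to 3 in HFD DTMB against normal diet, 3 to 6 in MCD vehicle against normal diet, 3 to 5 in MCD DTMB against normal diet and 3 to 4 in the cohort difference of the diet effect. The lowest counts came without normal-diet replicate 2 of the HFD cohort (1 call each against normal diet), without HFD DTMB replicate 4 or HFD vehicle replicate 1 or 4 (1 call, where 537, 483 and 656 of all genes were called against 1978), and without normal-diet replicate 3 or 4 of the MCD cohort (3 calls). MCD DTMB against MCD vehicle and the cohort difference of the DTMB effect gave 0 calls in all settings run. For other lost or gained calls the cause was not tested.

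Replicate numbers were treated as names only. Correlations of same-numbered deviations ran from -0.44 to 0.34 in the HFD cohort and from -0.27 to 0.083 in the MCD cohort. Of 10 such pairs in each cohort, 5 exceeded 0.1 in the HFD cohort and 0 in the MCD cohort. Libraries of different numbers were not compared, so whether the numbers mark a pairing was not tested. With the replicate block the calls numbered 5 in HFD vehicle against normal diet, 4 in HFD DTMB against HFD vehicle, 6 in MCD vehicle against normal diet and 3 in the cohort difference of the diet effect, and were otherwise the same in number. Fos and Egr1 co-varied at r = -0.16 within the HFD cohort alone, against 0.63 over both. Fos and Fosb, with 15 to 692 and 0 to 60 reads per library, are the genes that depth limits most.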
